A study of Mus musculus with 8 samples.

Results

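DNA replication genes encode the machinery that copies the genome in S phase, and the 39 genes described here were chosen by name for that function, from origin licensing to S phase entry. For each gene, the probe set with the highest mean log2 intensity over the 8 arrays was read, and 38 of the 39 genes had such a probe set. The exception was Chaf1a, a subunit of chromatin assembly factor 1, which was not measured here. The array annotation used here holds 18193 genes in all. The members were taken by role: origin licensing, the MCM helicase core, helicase activation, the sliding clamp and its loader, polymerases and primase, nucleotide supply, Okazaki fragment joining with single-strand binding, replication-coupled chromatin, and S phase entry.

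Replication starts at origins, where the origin recognition complex with Cdc6 and Cdt1 loads the ring-shaped MCM helicase in G1. Cdc45 and the GINS complex turn that ring into an active helicase at the start of S phase, and primase, the replicative polymerases and the clamp Pcna then copy both strands from deoxynucleotides that ribonucleotide reductase and its partner enzymes supply. Many of these genes are transcribed by E2F factors once the cyclin kinases inactivate the Rb family. Bone marrow progenitors divide while they mature into macrophages under macrophage colony stimulating factor (M-CSF), and the mature cells divide little once that factor is withdrawn.

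The cells were bone marrow-derived macrophages (BMDM) of wild-type mice on the C57BL/6J background, whose age is not given in the sources used here. All of them had been grown in medium with 20% L929 cell supernatant, a source of M-CSF, and were replated without it on day 7. They then spent 24 hours in media alone (M0, 3 arrays), with LPS at 100 ng/ml and IFN-γ at 20 ng/ml (M1, 3 arrays), or with IL-4 at 20 ng/ml (M2, 2 arrays). Per the labels, replicates within a condition are biological. The study's methods describe both independent mice and in vitro replicates, so n here counts arrays and a p-value measures the spread between arrays. In bulk RNA such as this, fewer dividing cells and less of a transcript per cell cannot be told apart.

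Intensities are given in units, the linear scale of the deposited values, and an array's median over all probe sets lay between 38.9 and 40.4 units. Within a condition, the log2 values of any 2 arrays had a correlation of 0.994 to 0.997 across probe sets, which are not independent replicates. The macrophage label held: all 7 measured macrophage markers, among them Adgre1, Csf1r and Cd68, were above the array median in all 3 conditions, and their summed intensity was 70046 to 72901 units in M0, 60406 to 62467 in M1 and 50880 to 53862 in M2. Of 8 markers of hematopoietic progenitors, cells that divide fast in marrow, 6 were below the array median in each condition, and their summed intensity was 244 to 254 units in M0, 242 to 263 in M1 and 256 to 264 in M2. Summed markers of neutrophils, T cells, B cells and erythroid cells were at most 509 units on every array. Those of fibroblasts and stroma were 191 to 230 units in M0, 255 to 402 in M1 and 213 to 310.2 in M2, with 7, 5 and 7 of 8 below the array median, and their part in the results was not tested.

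In M1 macrophages, 32 of the 38 replication genes were lower than in M0, none was higher and 6 did not pass the test (limma, Benjamini-Hochberg adjusted p under 0.05 over all probe sets). Across all 18193 genes 11.5% were called lower in that comparison and 13.7% higher. Among the 10292 genes above 64 units in at least 1 condition, the share called lower was 18.4%. Of the 32, 26 were at least 2-fold lower, which 3.2% of all genes were. The median log2 difference of the 38 genes was -1.29, a 2.45-fold lower level, against a median of 0.02 over all genes, and it ran from -3.70 for Rrm2 to 0.32 for E2f1. On 32 of the 38 genes the 3 M1 arrays were the lowest of all 8, and how many of all genes did so was not counted. At an unadjusted p under 0.05, 1 gene was higher in M1, E2f1, and the methods' t-test after adjustment called 26 lower and 0 higher. Shares over all genes were counted for the adjusted limma calls alone.

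In M2 macrophages, 1 of the 38 genes, Dut, was higher than in M0, none was lower and 37 did not pass, while 8.03% of all genes were called higher and 6.43% lower. The median log2 difference was -0.11, against 0.01 over all genes. At an unadjusted p under 0.05 limma gave 5 genes as lower in M2, and the methods' t-test gave 0 as lower with or without adjustment. Set directly against M2, M1 macrophages were lower in 31 of the 38 genes and higher in 1, E2f1, with 12.3% and 11.5% of all genes called lower and higher. The methods' t-test after adjustment called 2 lower and 0 higher in that comparison, and without M2 replicate 1 limma called 23 lower. For the t-test and the unadjusted p-values no share of all genes was counted, so those counts have nothing to stand against. The comparisons of M1 and M2 with M0 share the M0 arrays, so their values stand side by side and are not independent.

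**Figure D1:**
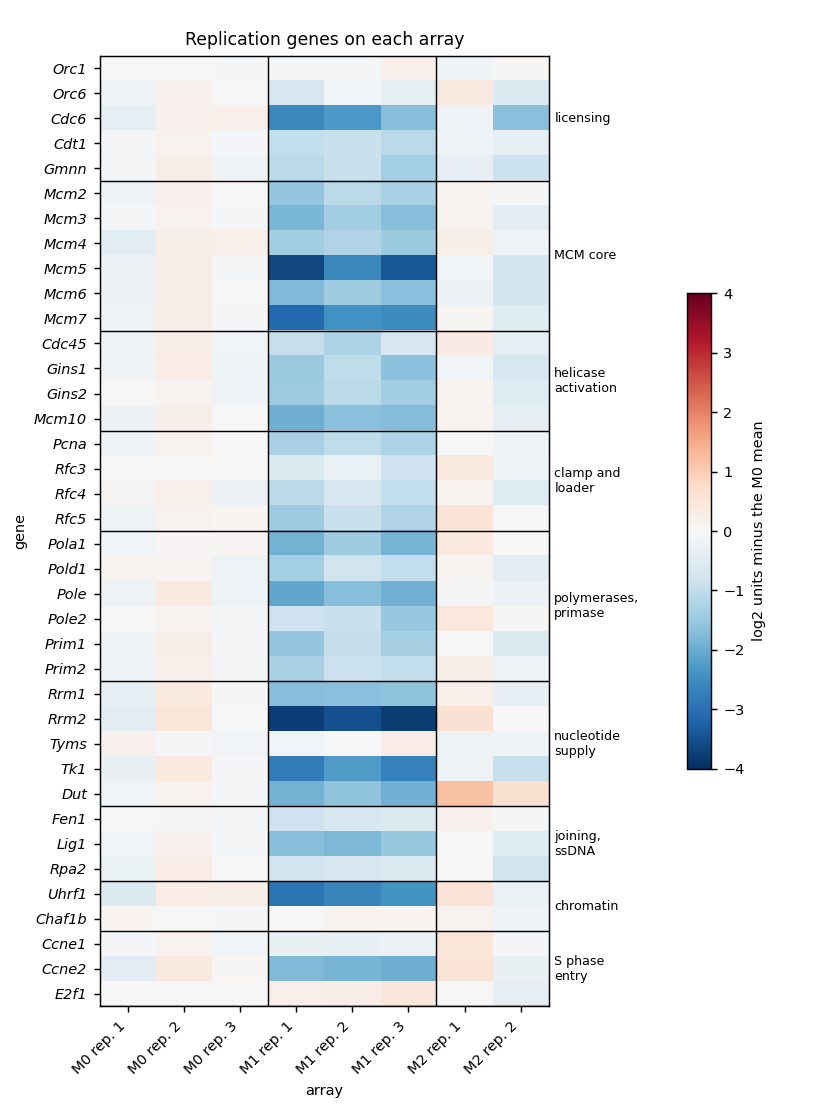
Log2 units of the 38 measured genes (rows, by role) on the 8 arrays (columns), each minus the gene's mean over the 3 M0 arrays; blue is lower and red higher. The 3 M1 columns are blue for most rows, down to a mean of -3.70 for Rrm2, while Orc1, Tyms, Chaf1b and E2f1 stay near white or pale red, and the M2 replicate 1 column is redder than that of M2 replicate 2.

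The stretch around the start of transcription is shown for the pair of genes with the largest falls in M1 and for the pair with the smallest differences (1 of them, Tyms, too dim to read), since E2F factors act at such sites. Each runs from 250 bases before to 50 bases after the start annotated by RefSeq on GRCm38.p6. They are given 5′ to 3′ on the gene's strand in lower case, with capitals for any of 4 E2F words (TTTCCCGC, TTTGGCGC, TTTGCCGC or TTTCGCGC, searched on both strands). The Rrm2 stretch is chr12:24708004-24708303 on the plus strand, Mcm5 chr8:75109259-75109558 plus, Orc1 chr4:108579204-108579503 plus and Tyms chr5:30073576-30073875 minus.
Rrm2: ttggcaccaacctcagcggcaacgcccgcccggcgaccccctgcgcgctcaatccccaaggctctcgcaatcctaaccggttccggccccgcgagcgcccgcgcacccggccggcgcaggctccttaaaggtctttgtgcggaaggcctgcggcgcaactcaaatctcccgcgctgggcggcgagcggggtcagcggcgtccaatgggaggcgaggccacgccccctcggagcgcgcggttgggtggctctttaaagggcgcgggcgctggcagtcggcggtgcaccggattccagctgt
Mcm5: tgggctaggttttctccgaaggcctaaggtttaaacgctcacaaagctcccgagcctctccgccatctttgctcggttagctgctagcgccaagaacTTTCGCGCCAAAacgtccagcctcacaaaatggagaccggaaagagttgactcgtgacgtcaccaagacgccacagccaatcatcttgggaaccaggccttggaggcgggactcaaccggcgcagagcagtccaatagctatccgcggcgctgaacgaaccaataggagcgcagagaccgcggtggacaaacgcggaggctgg
Orc1: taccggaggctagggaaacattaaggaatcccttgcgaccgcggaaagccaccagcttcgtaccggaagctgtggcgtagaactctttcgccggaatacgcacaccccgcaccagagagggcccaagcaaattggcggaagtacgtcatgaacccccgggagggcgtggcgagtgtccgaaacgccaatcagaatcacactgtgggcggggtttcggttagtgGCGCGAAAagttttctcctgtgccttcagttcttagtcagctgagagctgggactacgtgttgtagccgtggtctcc
Tyms: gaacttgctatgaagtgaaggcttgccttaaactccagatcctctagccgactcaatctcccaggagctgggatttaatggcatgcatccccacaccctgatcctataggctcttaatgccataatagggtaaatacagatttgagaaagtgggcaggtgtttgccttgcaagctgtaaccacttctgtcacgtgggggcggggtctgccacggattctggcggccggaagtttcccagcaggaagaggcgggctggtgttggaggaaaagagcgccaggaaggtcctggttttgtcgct
In Mcm5, 2 overlapping E2F words, 1 on each strand, start 153 and 149 bases before the start, and in Orc1 a single word starts 27 bases before it. The stretches of Rrm2 and Tyms hold none of these letters, which says nothing about E2F binding there.

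The table of promoters held 37 such stretches for 32 of the 39 genes. An E2F word was found in 13 of the 37 (35.1%), in 13 different genes, against 744 of all 32851 promoters (2.26%). Of the 25 genes with a promoter that were lower in M1, 12 held a word, and of the 6 that did not pass, 1 did, Orc1. Mcm3, Mcm5, Mcm6 and Mcm7 of the helicase core held one. CCAAT, on either strand, stood in 54.1% of the 37 and in 37.4% of all promoters. The words TTTGAA and TTTAAA, which belong to the cell cycle homology region (CHR) of mitosis genes, stood in 21.6% and 27.6%. Of 32 promoters of mitosis and spindle genes, 1 held an E2F word, 78.1% held CCAAT and 81.2% a CHR word. These are counts of letters, with no test.

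Origin licensing was split. Cdc6, the loader that recruits MCM rings to origins, read 59.5, 86.2 and 89.8 units on the 3 M0 arrays, 12.8, 15.8 and 23.5 on the 3 M1 arrays and 69.4 and 24.0 on the 2 M2 arrays. All M1 values were below the M0 values, at 4.59-fold lower (log2 -2.20 ± 0.33, SE; adjusted p = 0.000365), but the M1 values lie below the array median, where intensities measure little, and with a floor of 64 units the difference was -0.31 and did not pass (adjusted p = 0.354). M2 replicate 2 stood near the M1 arrays and M2 replicate 1 among the M0 arrays, so that Cdc6 was lower in M2 without M2 replicate 1 (log2 -1.69, adjusted p = 0.0078) and not with it (adjusted p = 0.141).

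Cdt1, the partner of Cdc6 in loading, fell with it. Its values were 2117, 2446 and 2149 units on the 3 M0 arrays, 1121, 1199.98 and 1067 on the 3 M1 arrays and 1971 and 1718 on the 2 M2 arrays. The 3 M1 arrays were close together and 1.98-fold below M0 (log2 -0.98 ± 0.11; adjusted p = 2.73e-05). In M2 both arrays were below all M0 arrays by a small amount that did not pass (-0.28, adjusted p = 0.168). Gmnn, geminin, binds Cdt1 and blocks relicensing after S phase has begun. It gave 661, 789.7 and 596 units on the 3 M0 arrays, 318, 368 and 265 on the 3 M1 arrays and 543 and 377 on the 2 M2 arrays, so that inhibitor and target fell together in M1 (Gmnn log2 -1.11 ± 0.16; adjusted p = 0.000327). In M2 the 2 Gmnn values were below all M0 values, with a log2 difference of -0.58 (-0.98 to -0.19, 95% interval) that missed the threshold (adjusted p = 0.0585) and passed without M2 replicate 1 (0.0297) or without M1 replicate 3 (0.0472).

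The subunits of the origin recognition complex among the members did not pass the test in M1. Orc1, the subunit that most cells lose after S phase, read 103, 103 and 98.99 units on the 3 M0 arrays, 96.9, 98.6 and 118 on the 3 M1 arrays and 90.7 and 105 on the 2 M2 arrays. The arrays of all 3 conditions overlapped, and the difference in M1 was 0.03 (-0.21 to 0.27; adjusted p = 0.9). A second, dimmer Orc1 probe set at 40.4 units in M0 and 25.2 in M1 was called lower (log2 -0.68, adjusted p = 0.00192), so the 2 probe sets of Orc1 differ in their call. Orc6 read 133, 169 and 149 units on the 3 M0 arrays, 93.4, 138 and 114 on the 3 M1 arrays and 190.3 and 102 on the 2 M2 arrays, with M1 replicate 2 above M0 replicate 1 and M2 replicates 1 and 2 on either side of all M0 arrays. Its M1 difference of -0.40 (-0.85 to 0.06) did not pass (adjusted p = 0.237).

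All 6 genes of the MCM helicase core were at least 2-fold lower in M1, with a median log2 difference of -1.63. Mcm5 had the largest fall of the ring and the second largest of all members. Its values were 804, 1132 and 900.3 units on the 3 M0 arrays, 75.4, 155 and 89.0 on the 3 M1 arrays and 867 and 549 on the 2 M2 arrays. M1 arrays were 9.23-fold below M0 (log2 -3.21 ± 0.25; adjusted p = 1.72e-06), and a second Mcm5 probe set gave -3.27. Of the other subunits Mcm7 was at log2 -2.68, Mcm3 at -1.64, Mcm6 at -1.61, Mcm4 at -1.36 and Mcm2 at -1.31, with standard errors of 0.13 to 0.25. Further probe sets of Mcm7 gave -1.70 to -2.42 and a second one of Mcm2 gave -1.51, so the order of the subunits depends on the probe set. In M2 none of the 6 passed, and their differences lay between -0.48 for Mcm6 and 0.02 for Mcm4. A second Mcm6 probe set was called lower in M2 (log2 -0.90, adjusted p = 0.0195), and so was the first without M2 replicate 1 (-0.73, adjusted p = 0.0485).

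Helicase activation genes fell as a block in M1, 4 of 4. Mcm10, which helps the assembled helicase to unwind, changed most in the probe sets used. It read 161, 223 and 190.3 units on the 3 M0 arrays, 49.1, 59.2 and 57.4 on the 3 M1 arrays and 208 and 146 on the 2 M2 arrays. There was no overlap between M1 and the others (log2 -1.78 ± 0.15; adjusted p = 4.75e-06). Mcm10 probe sets at 49.0 and 16.2 units in M0 gave -0.42 (adjusted p = 0.0174) and -0.18 (0.309). The GINS subunits Gins1 and Gins2 were lower by 2.61-fold and 2.49-fold. A second Gins2 probe set, at 266 units in M0, gave log2 -1.72, so the order of these genes depends on the probe set. Cdc45, which completes the active helicase with GINS, was lower by 1.93-fold (log2 -0.95 ± 0.19; adjusted p = 0.00346), while a second, dimmer Cdc45 probe set at 46.3 units in M0 and 47.5 in M1 did not pass (0.04, adjusted p = 0.892). In M2 their differences ran from -0.37 to -0.02 and none passed.

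Pcna, the sliding clamp that holds polymerases on DNA, read 8203, 10145 and 9392 units on the 3 M0 arrays, 3782, 4554 and 3858 on the 3 M1 arrays and 9143 and 8084 on the 2 M2 arrays. M1 arrays were 2.27-fold lower than M0 with narrow spread (log2 -1.19 ± 0.12; adjusted p = 1.44e-05), and the 2 M2 arrays, 1 of them just below the lowest M0 array, gave -0.10 (-0.39 to 0.19). The subunits of its loader were also lower, Rfc5 by 2.27-fold, as much as Pcna, Rfc4 by 1.88-fold and Rfc3 by 1.48-fold. The call of Rfc3 (adjusted p = 0.0231) was lost when any of the 3 M0 arrays or M1 replicate 1 or 3 was left out, with adjusted p up to 0.0989.

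All 6 polymerase and primase genes were at least 2-fold lower in M1 in the probe sets used, at log2 -1.91 to -1.04. Second probe sets above 64 units in M0 gave -0.90 for Pold1 and -0.95 for Prim2, short of 2-fold, and -1.74 for Prim1. Pole, the catalytic subunit of the leading strand polymerase, was at one end with 119, 178 and 122 units on the 3 M0 arrays, 32.5, 41.9 and 36.1 on the 3 M1 arrays and 132 and 116 on the 2 M2 arrays. Its mean in M1 lay below the array median (log2 -1.91 ± 0.16; adjusted p = 3.05e-06). Pola1, the catalytic subunit of the polymerase that extends primers, followed at -1.73, also with M1 values of 28.5 to 39.5 units below the array median, though a second Pola1 probe set at 13.7 units in M0 and 14.1 in M1 did not pass (0.04, adjusted p = 0.896). The primase subunits Prim1 and Prim2, which make the RNA primers, were at -1.27 and -1.04, Pole2 at -1.08 and Pold1, the catalytic subunit of the lagging strand polymerase, at -1.04. In M2 the 6 lay between -0.29 and 0.23, and none passed.

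Nucleotide supply held both the largest fall in M1 and the one rise in M2. Rrm2, the small subunit that limits ribonucleotide reductase in S phase, read 389.9, 747 and 530.3 units on the 3 M0 arrays, 39.3, 46.5 and 38.4 on the 3 M1 arrays and 812 and 526 on the 2 M2 arrays. The M1 arrays fell to the array median, 13.0-fold below M0 (log2 -3.70 ± 0.21; adjusted p = 1.66e-07), and its other probe sets gave -2.79 and -3.52. In M2 the difference was 0.29 (-0.24 to 0.81; adjusted p = 0.543). The large subunit Rrm1, which is more stable through the cycle, fell 3.18-fold in M1 (log2 -1.67 ± 0.17).

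Tk1, the S phase thymidine kinase of the salvage route, read 395, 642 and 461 units on the 3 M0 arrays, 70.2, 102 and 75.3 on the 3 M1 arrays and 421 and 255 on the 2 M2 arrays. All M1 arrays were well under the others (log2 -2.59 ± 0.21; adjusted p = 3.35e-06). M2 replicate 2 was below every M0 array and M2 replicate 1 among them, and the M2 difference of -0.58 (-1.10 to -0.06) did not pass.

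Dut, the enzyme that degrades dUTP and so keeps uracil out of DNA, was the one member called in both comparisons, and in opposite directions. It read 178, 212 and 183 units on the 3 M0 arrays, 51.5, 63.0 and 49.8 on the 3 M1 arrays and 434 and 292 on the 2 M2 arrays. The 3 conditions did not overlap: M1 was 3.50-fold below M0 (log2 -1.81 ± 0.15; adjusted p = 3.54e-06) and M2 was 1.87-fold above it (log2 0.90 ± 0.17; adjusted p = 0.00372). A dimmer second probe set of Dut gave -0.50 and 0.76, both passing. Without M2 replicate 1 the rise in M2 was 0.62 and no longer passed (adjusted p = 0.0539).

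Tyms, thymidylate synthase, makes dTMP and could not be read: its probe set gave 13.5, 11.5 and 11.1 units on the 3 M0 arrays, 11.0, 11.7 and 14.6 on the 3 M1 arrays and 10.4 and 10.4 on the 2 M2 arrays, all far below the array median, as did the 3 other probe sets assigned to this gene alone, 1 of which was called lower in M1 at 11.7 units in M0 (-0.40, adjusted p = 0.0208). A brighter probe set is listed under both Tyms and the pseudogene Tyms-ps and was not used. No direction is given for Tyms.

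**Figure D2:**
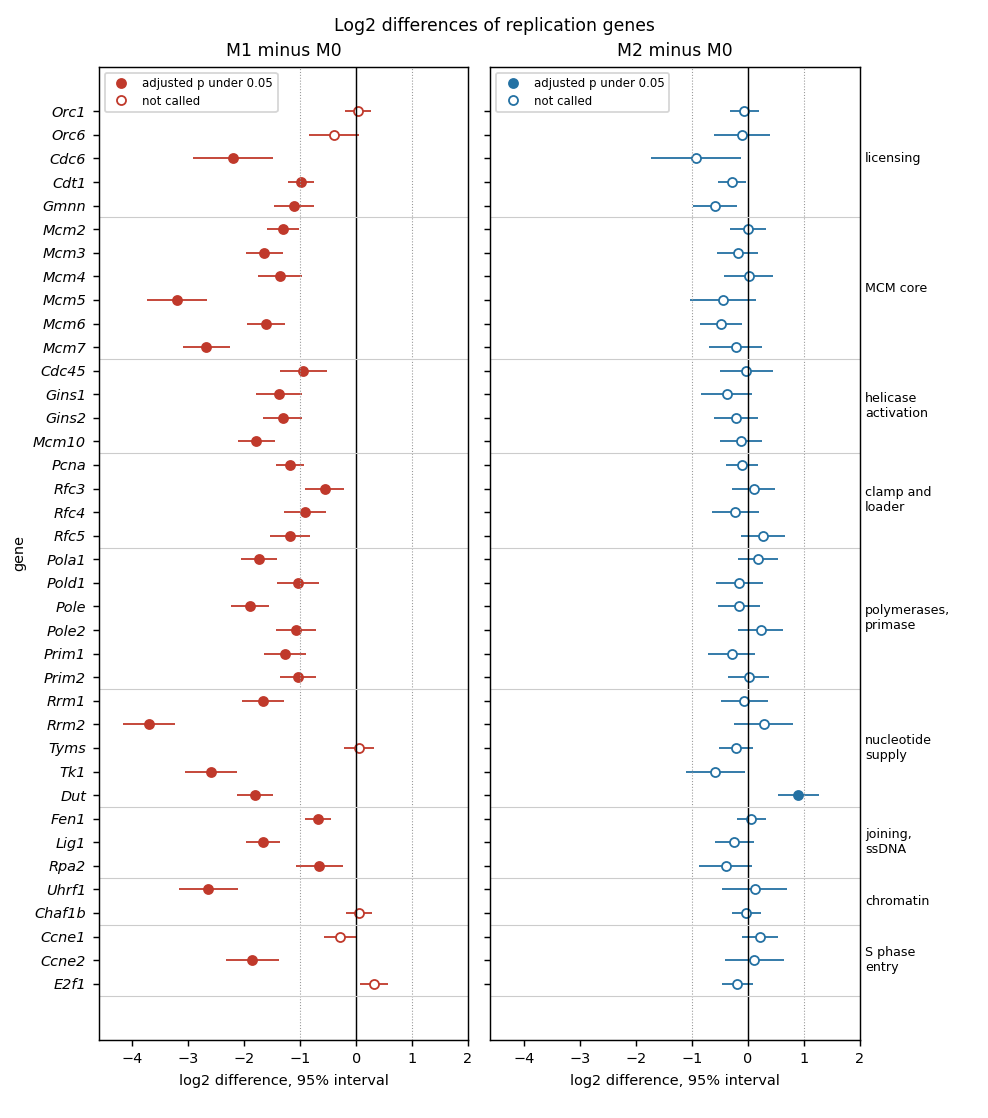
Log2 difference of each of the 38 genes from M0 in M1 (left) and M2 (right), with the 95% interval of the limma fit; filled points have an adjusted p under 0.05, and dotted lines mark 2-fold. On the left, 32 filled points lie below 0. On the right Dut at 0.90 is the one filled point and 34 of 38 intervals lie within 2-fold.

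Of the genes that finish Okazaki fragments and bind single strands, Lig1, the ligase that seals them, read 594, 725 and 619.6 units on the 3 M0 arrays, 197, 186 and 226 on the 3 M1 arrays and 652 and 459 on the 2 M2 arrays. It fell 3.18-fold in M1 (log2 -1.67 ± 0.14; adjusted p = 3.92e-06). Fen1, the nuclease that trims the flap before ligation, fell less, 1.61-fold (log2 -0.69 ± 0.11). A second Fen1 probe set, at 579 units in M0, gave -1.19 (adjusted p = 4.66e-05), so the size of its fall depends on the probe set. Rpa2, a subunit of the single-strand binding protein that also serves in repair, was lower by 1.58-fold (adjusted p = 0.0288), a call lost without M0 replicate 2 or 3 or any single M1 array, with adjusted p of 0.0578 to 0.134. A second Rpa2 probe set passed at -0.78 (adjusted p = 0.00266).

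The chromatin genes parted. Uhrf1, which brings the maintenance methyltransferase to newly copied DNA, read 165, 299.9 and 288 units on the 3 M0 arrays, 32.6, 38.8 and 46.4 on the 3 M1 arrays and 343 and 203 on the 2 M2 arrays. The M1 mean was just below the array median, 6.23-fold below M0 (log2 -2.64 ± 0.24; adjusted p = 6.97e-06). Chaf1b, a subunit of the chaperone that places histones behind the fork, read 273, 254 and 245 units on the 3 M0 arrays, 253, 276 and 269 on the 3 M1 arrays and 281 and 228 on the 2 M2 arrays. Its 3 conditions overlapped, and the 95% interval in M1, -0.18 to 0.28, leaves room for less than a 2-fold change either way.

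Genes of S phase entry did not move as a group. Ccne2 and Ccne1 encode the E-type cyclins that drive Cdk2 at the start of S phase. Ccne2, dim in M0, read 29.7, 52.9 and 41.4 units on the 3 M0 arrays, 11.9, 11.0 and 10.5 on the 3 M1 arrays and 57.8 and 32.9 on the 2 M2 arrays, and its M1 values lay far below the array median (log2 -1.86 ± 0.22; adjusted p = 5.29e-05; not passing with a floor of 64 units, adjusted p = 0.584). Ccne1 read 214, 248 and 208 units on the 3 M0 arrays, 179.96, 179 and 189.8 on the 3 M1 arrays and 312 and 216 on the 2 M2 arrays. Its M1 values were below every M0 and M2 value, but the difference from M0 was -0.29 (-0.58 to 0.01) and did not pass (adjusted p = 0.181). Against M2 it passed (log2 -0.51, adjusted p = 0.033) and was lost without M2 replicate 1 (0.351) or any M1 array (0.0513 to 0.0831).

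E2f1, an activator of these genes, stood apart. It read 427, 429.8 and 441 units on the 3 M0 arrays, 503, 524 and 598 on the 3 M1 arrays and 425 and 339 on the 2 M2 arrays, so the M1 arrays were the highest of all 8, the only member for which that held. The difference from M0 was 0.32 (0.08 to 0.57; adjusted p = 0.0672), just short of the threshold, and a second E2f1 probe set passed at 0.54 (adjusted p = 0.00469), as did the first with only M0 and M1 arrays in the fit (0.0427), with median centring (0.0494) or with dim probe sets left out (0.0389). Against M2 E2f1 was higher in M1 by 0.51 ± 0.13 (adjusted p = 0.0127), a call lost without M2 replicate 2 (0.137).

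**Figure D3:**
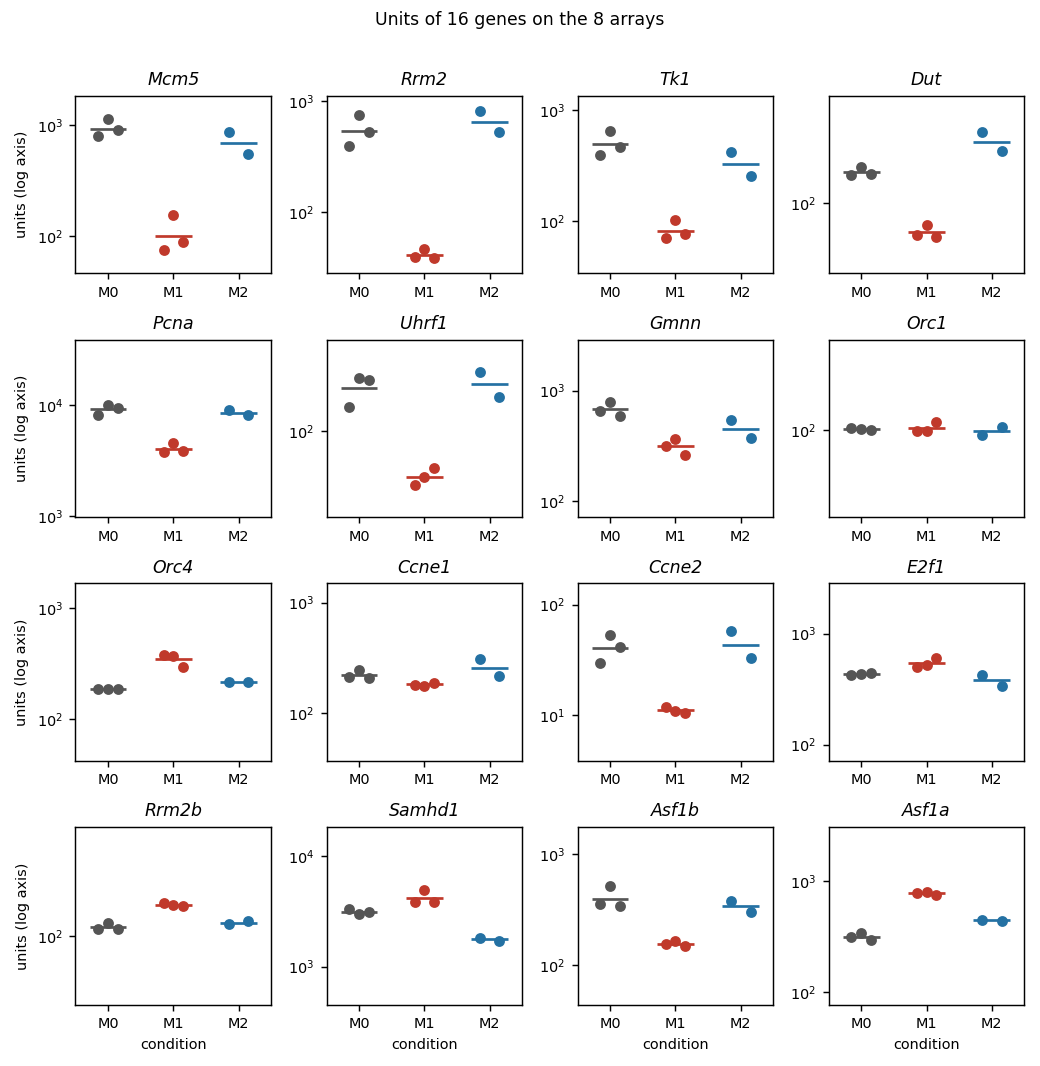
Units on each array (points, log axis) for 11 members and 5 related genes that results turn on, with a line at the geometric mean of each condition; every panel spans the same fold. Mcm5, Rrm2, Tk1 and Uhrf1 lie well below M0 in M1, both M2 points of Dut lie above its M0 points, and Orc4, Rrm2b and Asf1a stand above M0 in M1.

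The 2 M2 arrays differed on these genes in 1 direction. M2 replicate 1 was above M2 replicate 2 for 37 of the 38 genes, and how many of all genes did so was not counted. Measured from the M0 mean, the median over the 38 was 0.11 on M2 replicate 1, with 25 genes above that mean, and -0.33 on M2 replicate 2, with 4 above. The M0 arrays gave -0.15, 0.18 and -0.05, with 34 of 38 above the mean on M0 replicate 2, and the M1 arrays gave -1.44, -1.05 and -1.38. Each M1 array was thus far below both M2 arrays. Without M2 replicate 1 the median M2 difference became -0.33 and 4 genes were lower in M2, Cdc6, Gmnn, Mcm6 and Rpa2, with Dut no longer called. Without M2 replicate 2 the median became 0.11, with no gene lower. Mitosis and spindle genes moved with the same arrays: their median was 0.40 on M0 replicate 2, -0.02 on M2 replicate 1 and -0.46 on M2 replicate 2.

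With 2 M2 arrays the intervals are wide, but for 34 of the 38 genes the 95% interval of the M2 difference lay within 2-fold of M0 in both directions. The exceptions were Cdc6 (-1.72 to -0.12), Mcm5 (-1.04 to 0.16) and Tk1 (-1.10 to -0.06) on the low side and Dut (0.53 to 1.27) on the high side. In M1 8 of the 38 intervals excluded a 2-fold fall. Neither of these interval counts was made over all genes. Of the 32 genes lower in M1 than in M0, 30 were also lower in M1 than in M2, all but Gmnn and Rpa2, whose M2 means stood between those of M1 and M0, and Ccne1 was lower than in M2 alone. The comparisons of M1 with M0 and with M2 share the M1 arrays, so these calls are not independent. Nucleotide supply had the largest median of M1 against M2 among the roles, -2.01, with Rrm2 at -3.99 and Dut at -2.71.

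**Figure D4:**
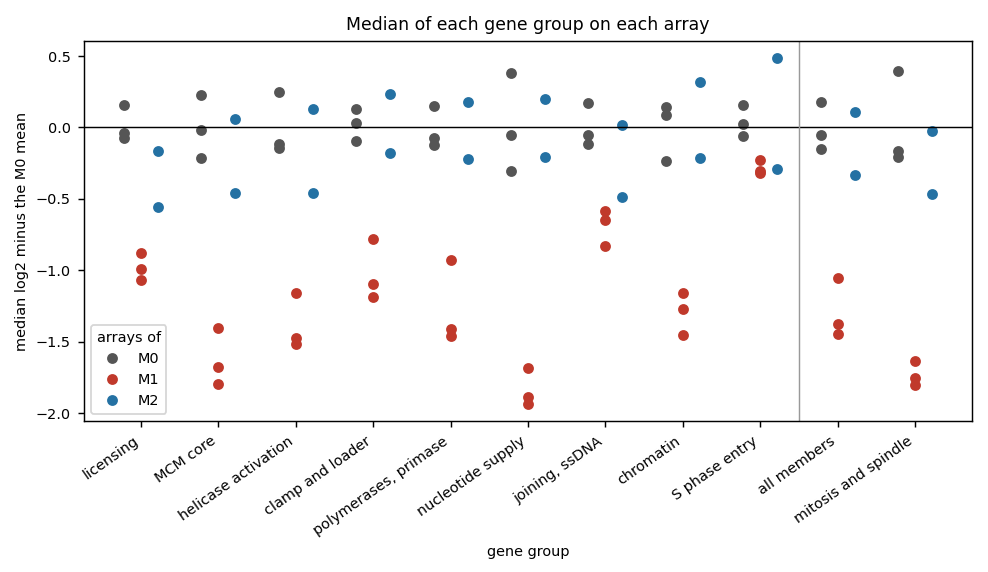
Median over the genes of each role of log2 units minus the gene's M0 mean, 1 point per array, with all 38 members and the mitosis list at the right. M1 points (red) lie below all M0 and M2 points in every role but S phase entry, and M2 replicate 2 lies below replicate 1 in each list.

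Of the 38 genes, 29 had further probe sets, 44 in all. In M1, 36 of the 44 had the sign of the probe set used, 29 were called lower, 1 higher (E2f1) and 14 not, many of these dim. The median over the second brightest probe set of the 29 genes was -0.90. In M2, 1 of the 44 was called lower, Mcm6, and 1 higher, Dut.

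Of 86 other genes of replication and the G1/S switch, written from general knowledge, 84 were measured, and in M1 31 were lower and 16 higher, with a median of -0.30, where 11.5% and 13.7% of all genes were called lower and higher. The 16 became 10 without M0 replicate 2 or without M1 replicate 2. In M2 8 were lower and 8 higher, where 6.43% and 8.03% of all genes were, with 4 lower without M2 replicate 2 and 3 higher without M2 replicate 1.

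Among 16 further licensing and helicase genes, 4 were lower and 6 higher in M1. Orc4 and Orc2, constant subunits of the origin recognition complex, rose by log2 0.88 (adjusted p = 9.53e-05) and 0.62 (0.000777), and Orc4 read 188 to 189 units in M0 and 297 to 377 in M1. The other constant subunits, Orc5 and Orc3, looked at after their values were seen, were at 0.45 (0.00765) and 0.34 (0.0272), the latter not passing without M0 replicate 1 or 2 or M1 replicate 2 or 3. Dimmer probe sets of Orc2 and Orc4 did not pass in M1, and 1 of Orc3 was called lower (-0.33, adjusted p = 0.0337). Topbp1, which recruits Cdc45 and GINS factors, and Wdhd1, which ties polymerase to the helicase, fell (log2 -1.01, 0.000556, and -0.80, 0.000415). In M2 Orc2 rose by 1.02 (adjusted p = 8.43e-05), as did both of its further probe sets, and Mtbp, a partner of the origin-firing factor treslin, by 1.00 (0.000682).

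Among 20 further polymerase, clamp and fork genes, 10 were lower and 3 higher in M1. Dscc1, of an alternative clamp loader, and Clspn, claspin, which signals from stalled forks, fell most (log2 -2.39 and -1.94, adjusted p = 1.36e-05 and 2.83e-05), Dscc1 from an already dim level. Pold4, the smallest subunit of the lagging strand polymerase, rose by 0.97 (adjusted p = 0.000177): it read 625, 617 and 529 units on the 3 M0 arrays, 1114, 1219 and 1132 on the 3 M1 arrays and 731 and 517 on the 2 M2 arrays. Its catalytic partner Pold1 fell in the same cells. Pole4, a small subunit of the leading strand enzyme, was higher by 0.44 (0.0182) against the fall of Pole, and did not pass without M0 replicate 3 or M1 replicate 2. In M2 Dna2, a nuclease of long flaps, and Rnaseh2a, of the enzyme that removes ribonucleotides, were higher by 0.42 (0.0446) and 0.41 (0.0362), both lost when any M0 array or M2 replicate 1 was left out, Dna2 also without M1 replicate 1 and Rnaseh2a without M2 replicate 2.

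Among 14 measured genes of nucleotide supply outside the members, 4 were lower and 2 higher in M1. Rrm2b, the p53-induced small subunit of ribonucleotide reductase that serves cells outside S phase, read 115, 129.6 and 115 units on the 3 M0 arrays, 199, 188 and 186 on the 3 M1 arrays and 127 and 135 on the 2 M2 arrays. It rose in M1 by 0.68 (adjusted p = 0.000271), with no overlap, opposite to the fall of Rrm2 and Rrm1. Samhd1, which breaks down deoxynucleotides in non-dividing cells, read 3308, 2973 and 3134 units on the 3 M0 arrays, 3794, 4864 and 3849 on the 3 M1 arrays and 1828 and 1692 on the 2 M2 arrays. It was higher in M1 by 0.40 (adjusted p = 0.0262; lost without M0 replicate 2 or 3 or M1 replicate 2) and lower in M2 (log2 -0.83, 0.00101). Its second brightest probe set, at 2467 units in M0, fell in M1 instead (log2 -1.01, adjusted p = 0.000103), so the direction of Samhd1 in M1 depends on the probe set, while 4 of its 4 further probe sets were also lower in M2. Dck, the kinase that salvages deoxycytidine, fell in M1 and in M2 (log2 -1.04 and -1.08, adjusted p = 0.000168 and 0.000648). A second Dck probe set, at 370 units in M0, passed in neither (-0.53 and -0.52, adjusted p = 0.0946 and 0.181). A dimmer one passed in both (-1.12 and -0.91, adjusted p = 0.000601 and 0.00973). Dctd, dCMP deaminase, fell in M1 at a dim level (log2 -0.84). The mitochondrial kinase Cmpk2, an interferon-induced gene, read 588, 572 and 1002 units on the 3 M0 arrays, 903, 1314 and 979 on the 3 M1 arrays and 106 and 93.0 on the 2 M2 arrays (M2 log2 -2.81, adjusted p = 5.32e-06), and Shmt2, a mitochondrial source of one-carbon units, rose in M2 by 1.06 (0.00353).

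The histone chaperone pair Asf1a and Asf1b diverged in M1. Asf1b, the form tied to dividing cells, read 352, 516 and 338 units on the 3 M0 arrays, 155, 164 and 149 on the 3 M1 arrays and 381 and 298 on the 2 M2 arrays. It fell in M1 (log2 -1.34, adjusted p = 5.56e-05). Asf1a read 315, 342 and 295 units on the 3 M0 arrays, 787, 811 and 761 on the 3 M1 arrays and 453 and 439 on the 2 M2 arrays. It rose in M1 by 1.31 (1.25e-06), also rising in M2 by 0.50 (0.00974; 0.0643 without M2 replicate 1). A second Asf1a probe set, at 7.38 to 8.92 units, passed in neither. Of the 9 measured genes of this list, 3 were lower and 1 higher in M1. Nasp, a chaperone of the histone supply, was called lower with -0.44 (0.0466), lost without any M0 array or M1 replicate 1 or 3. Supt16, of the FACT complex, was called higher in M2 with 0.56 (0.00572; 0.0568 without M2 replicate 1).

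Of 25 E2F, Rb and G1/S regulators, 10 were lower and 4 higher in M1. The D-type cyclins, which start Rb phosphorylation, split. Ccnd1 read 1907, 2127 and 2166 units on the 3 M0 arrays, 173, 265 and 165 on the 3 M1 arrays and 1497 and 962 on the 2 M2 arrays. It fell in M1 (log2 -3.39, adjusted p = 1.3e-07), with further probe sets at -2.90 and -3.62, while Ccnd2 rose by 1.12 (1.27e-05) and Ccnd3 by 0.57 (0.000757). A second Ccnd3 probe set, at 80.8 units in M0, passed neither in M1 (0.11, adjusted p = 0.58) nor in M2 (-0.09, adjusted p = 0.731). E2f7, a repressor that E2F1 itself induces in S phase, fell (log2 -2.33, 9.3e-06), as did its relative E2f8, looked at after its values were seen (-1.67, 2.42e-05), in the cells where E2f1 was highest. A second E2f8 probe set, at 45.3 units in M0, did not pass (-0.30, adjusted p = 0.163). Cdkn1a, the inhibitor p21, was called higher with 0.47 (0.0299), a call lost without any M0 array or M1 replicate 1. In M2 Ccnd1 and Ccnd3 were lower (log2 -0.78, 0.0308, and -0.69, 0.000916). Ccnd1 was no longer called without M0 replicate 2 or 3 or M2 replicate 2, and ran from -1.10 to -0.46 with single arrays left out. Further Ccnd1 probe sets gave -0.43 and -0.78 in M2 and did not pass (adjusted p = 0.441 and 0.0549). The kinase inhibitors Cdkn2d and Cdkn1c were the others called lower there, with -0.68 (0.00389) and -0.56 (0.0392). With single arrays left out they ran from -0.83 to -0.52 and from -0.70 to -0.38. Cdkn1c was not called without M0 replicate 1 or 3, any M1 array or either M2 array. Cdkn2d was not called without M2 replicate 2. Cdkn2d and Cdkn1c were looked at after their values were seen.

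**Figure D5:**
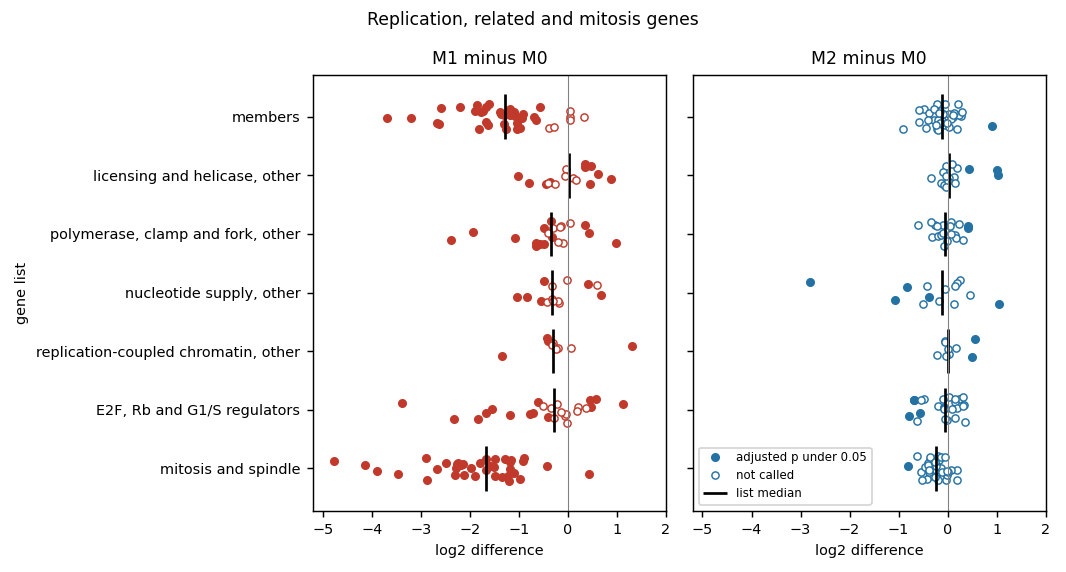
Log2 difference from M0 in M1 (left) and M2 (right) for each gene (points; filled, adjusted p under 0.05), with the list median as a black bar. The members at a median of -1.29 and the mitosis genes at -1.68 lie left of 0 in M1, the 5 related lists have medians of -0.34 to 0.02 with genes on both sides, and all medians in M2 are between -0.23 and 0.02.

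Genes of mitosis and the spindle, the phase that follows replication, were measured beside the members. In M1 36 of 37 were lower and 1, Pttg1, was higher, with a median of -1.68 against -1.29 for the members. The rise of Pttg1 was lost without M0 replicate 2 or M1 replicate 2. In M2 1 of 37 was lower, Pttg1 again, and 3 were without M2 replicate 1, with a median of -0.23. Across all genes, 11.5% were called lower and 13.7% higher in M1, and 6.43% and 8.03% in M2. Pttg1 was named after its values were seen. The levels of a pair of lists were not tested against each other.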

How the data were processed

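RNA of 8 BMDM samples was hybridised to 1-colour Affymetrix mouse genome arrays. The authors deposited intensity values on a linear scale for 45101 probe sets, made with RMA, which the submitters' processing notes also name, so background correction and quantile normalization had been done before. No other sample's columns were in the table (0). Here 64 control probe sets were removed and log2 intensities of the other 45037 were fitted with limma 3.58.1 (lmFit, eBayes; R 4.3.3) on all 8 arrays, with Benjamini-Hochberg adjustment over all probe sets and calls at an adjusted p under 0.05. With 5 residual degrees of freedom, the number of arrays limits the precision. GEO's platform annotation gave 1 gene symbol for 34945 probe sets (18193 genes), several for 932 and none for 9160. Each gene was read from its probe set with the highest mean, so low values lie near background, and comparisons between genes of intensity were not made. Standard errors and 95% intervals come from the fit. The fit was tested on simulated data.

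The members and lists were chosen with earlier results of these data known. Values on every array were given for the member of each role with the largest M1 difference, for members not called in M1 or called in M2, and for Cdt1, Gmnn, Pcna, Rrm2, Tyms, Tk1, Ccne1, Ccne2 and E2f1. Of each other list, the 2 largest falls and rises among calls were named, with Samhd1, Rrm2b, Cdkn1a and E2f7. In the titles each number, such as WT1, recurs across conditions. Whether that marks the same mouse is not stated, and the arrays' deviations could not decide it. No pairing was used in the main fit, and a replicate block was an alternative. Alternatives changed the arrays fitted, block, variance model, scaling, normalization, floor, filter, threshold, test (the methods' t-test) and probe set, and left out each array. Promoter words were counted in RefSeq sequences of GRCm38.p6 (Python 3.11.15, pandas 2.3.3), and figures used matplotlib 3.10.9.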

Additional observations from a re-analysis of the deposited data

How the results depend on the processing

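The fall of the members in M1 kept its direction in every alternative run, with 30 to 32 of 38 lower and a median of -1.43 to -1.19 when single arrays were left out (0 to 1 higher), and -0.90 in the second probe set (29 genes). Fewer, 26 of 38, were lower in M1 with the floor of 64 units (median -1.11), the 2-fold limit or the methods' t-test. One member, E2f1, was higher with only the 2 conditions compared, median centring, dim probe sets left out or the second probe set (1 each). M2 against M0 depended on single arrays: 0 to 4 lower, 0 to 1 higher, median -0.33 to 0.11. It gave 1 lower with the replicate block, limma-trend, quantile normalization, dim probe sets left out or the second probe set, and 0 higher with the floor of 64 units, the 2-fold limit or the methods' t-test. M1 against M2 gave 23 to 34 lower, 0 to 1 higher and a median of -1.38 to -0.86 without single arrays. It gave 2 lower with the methods' t-test, 22 with the floor and 19 of 29 in the second probe set. None (0) was higher with the floor, the adjusted p under 0.01, the 2-fold limit or the t-test. The replicate block gave 31 members lower in M1, 1 lower and 1 higher in M2, and 28 lower and 1 higher in M1 against M2. Same-numbered arrays' deviations correlated at -0.172 to 0.0547 (7 pairs) and others at -0.15 to 0.19 (14). With 2 M2 arrays, the deviation of each from their mean mirrors the other. This check therefore cannot decide whether the numbers pair the arrays.

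Among the 84 pathway genes, leaving out single arrays gave 21 to 32 lower and 10 to 16 higher in M1, 4 to 10 and 3 to 8 in M2, and 19 to 33 and 11 to 15 in M1 against M2. The floor of 64 units gave 15 and 10 in M1, 3 higher in M2 and 14 lower in M1 against M2. The adjusted p under 0.01 gave 9 higher in M1 and 5 and 5 in M2. The 2-fold limit gave 12 and 2, 2 and 2, and 12 and 4. The methods' t-test gave 15 and 8, 0 and 1, and 0 and 4. The second probe set (58 genes) gave 19 and 6, 3 and 3, and 13 and 4. Of the 37 mitosis genes, 35 to 36 were lower and 0 to 1 higher in M1, 1 to 3 lower and 0 higher in M2, and 31 to 36 lower and 1 higher in M1 against M2 without single arrays. Pttg1 was not called higher in M1 (0) with the floor, the adjusted p under 0.01, the 2-fold limit or the t-test. In M2 2 were lower with the replicate block or quantile normalization and 0 with the 2-fold limit or the t-test. In M1 against M2 17 were lower with the floor and 6 with the t-test, and the second probe set (25 genes) gave 17 in M1 and 14 in M1 against M2.

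Of 1305 values of single genes per comparison, 1156, 1206 and 1141 (M1, M2, M1 against M2) stayed on the same side of the threshold, 132, 85 and 146 lost the call, 12, 13 and 11 gained it, and 5, 1 and 7 changed sign with a call. A further 6, 72 and 11 changed sign with no call on either side. All sign changes with a call came from the second probe set: in M1 Cdc45 0.035, Dna2 -0.17, Orc1 -0.68, Pola1 0.038 and Samhd1 -1.01, in M2 Dna2 -0.071, and in M1 against M2 Asf1a -0.15, Orc1 -0.68, Orc3 -0.068, Orc4 -0.26, Pola1 0.11, Samhd1 -0.34 and Supt16 0.040. The cause was not tested. Probe sets below the array median (Cdc6, Pola1, Pole, Tyms, Uhrf1 and Ccne2 in M1) limit what their fold changes measure.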
